A study of Mus musculus with 14 samples.

Results

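Chemokines are small secreted proteins that draw leukocytes along a gradient, and chemokine receptors are the G protein-coupled receptors that read them. The genes described here are all those on the array whose annotated symbol is Ccl, Cxcl, Ccr, Cxcr or Ackr with a number, Cx3cl1, Cx3cr1, Xcl1, Xcr1, Darc, Ppbp or Pf4. The rule uses names only, and it found 57 of the 16879 genes measured, made up of 36 ligands and 21 receptors. They were measured in 12 mammary tumours of Brg1+/- mice on 14 two-colour arrays, and the genotype was the same in all tumours. Each label also carries the word MIXED, which it does not explain. Brg1 is the ATPase that drives SWI/SNF chromatin remodelling. Every array carried tumour RNA in Cy5 against a common mouse reference RNA in Cy3, so each value is a log2 ratio of tumour over reference. Tumours T172 and T284 had 2 arrays each, averaged here, the second marked "biorep" in its label, and the other 10 tumours had 1. There was no control tissue, and the labels used here give no age, treatment or animal of origin, and beyond the mark "biorep" do not say which step was done again for a second array. The p-values measure only the spread among these 14 arrays, between tumours and between the 2 arrays of T172 and of T284. That spread may be technical.

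The ligands are grouped by the spacing of their first cysteines into CC, CXC, C and CX3C chemokines, and the receptors are named after the group they bind. Inflammatory chemokines are made on demand by macrophages, stromal cells and epithelium, while homeostatic ones such as Cxcl12 and Cxcl13 place cells in tissues and lymphoid organs. Atypical receptors bind chemokines without G protein signalling and take them up. In tumours, the chemokines produced influence which myeloid cells and lymphocytes are found there.

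Array medians lay between 0 and 0.018, and 0.172% of values were missing. A ratio carries no signal level, so a gene that was too dim to measure cannot be told from one that did not vary, and ratios of different genes are not levels that can be ranked. Of the 57 genes, 56 were read by 1 probe each, and Cx3cl1 by 2. Cxcl9 had no value in T2023. The probe of Ccl21c may also read the near-identical copies of Ccl21. In bulk tumour RNA, fewer cells of a type and less RNA per cell cannot be told apart.

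Chemokine ligands varied more from tumour to tumour than chemokine receptors. Of the 57 genes, 32 differed between tumours (limma's moderated F-test, called where the adjusted p was under 0.05), against 18.3% of all 16877 genes tested. Of the ligands 27 of 36 were called, or 75.0%, and of the receptors 5 of 21, or 23.8%, which is near the background share. By class, 15 of 20 CC ligands and 12 of 14 CXC ligands were called. Among receptors it was 1 of 9 for CC, 2 of 6 for CXC and 2 of 4 for the atypical group. Neither of the 2 C and CX3C ligands was called by limma, with 1 at an unadjusted p under 0.05, and neither of their 2 receptors was called, with 0 at that level. The median SD of the log2 ratio over tumours was 0.961 for ligands, 0.328 for receptors and 0.386 for all genes. The 25 genes not called had SDs between 0.17 and 0.825 and adjusted p-values in limma's F-test from 0.069 to 0.986. The spread within a tumour that this test uses is known from T172 and T284 alone.

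**Figure D1:**
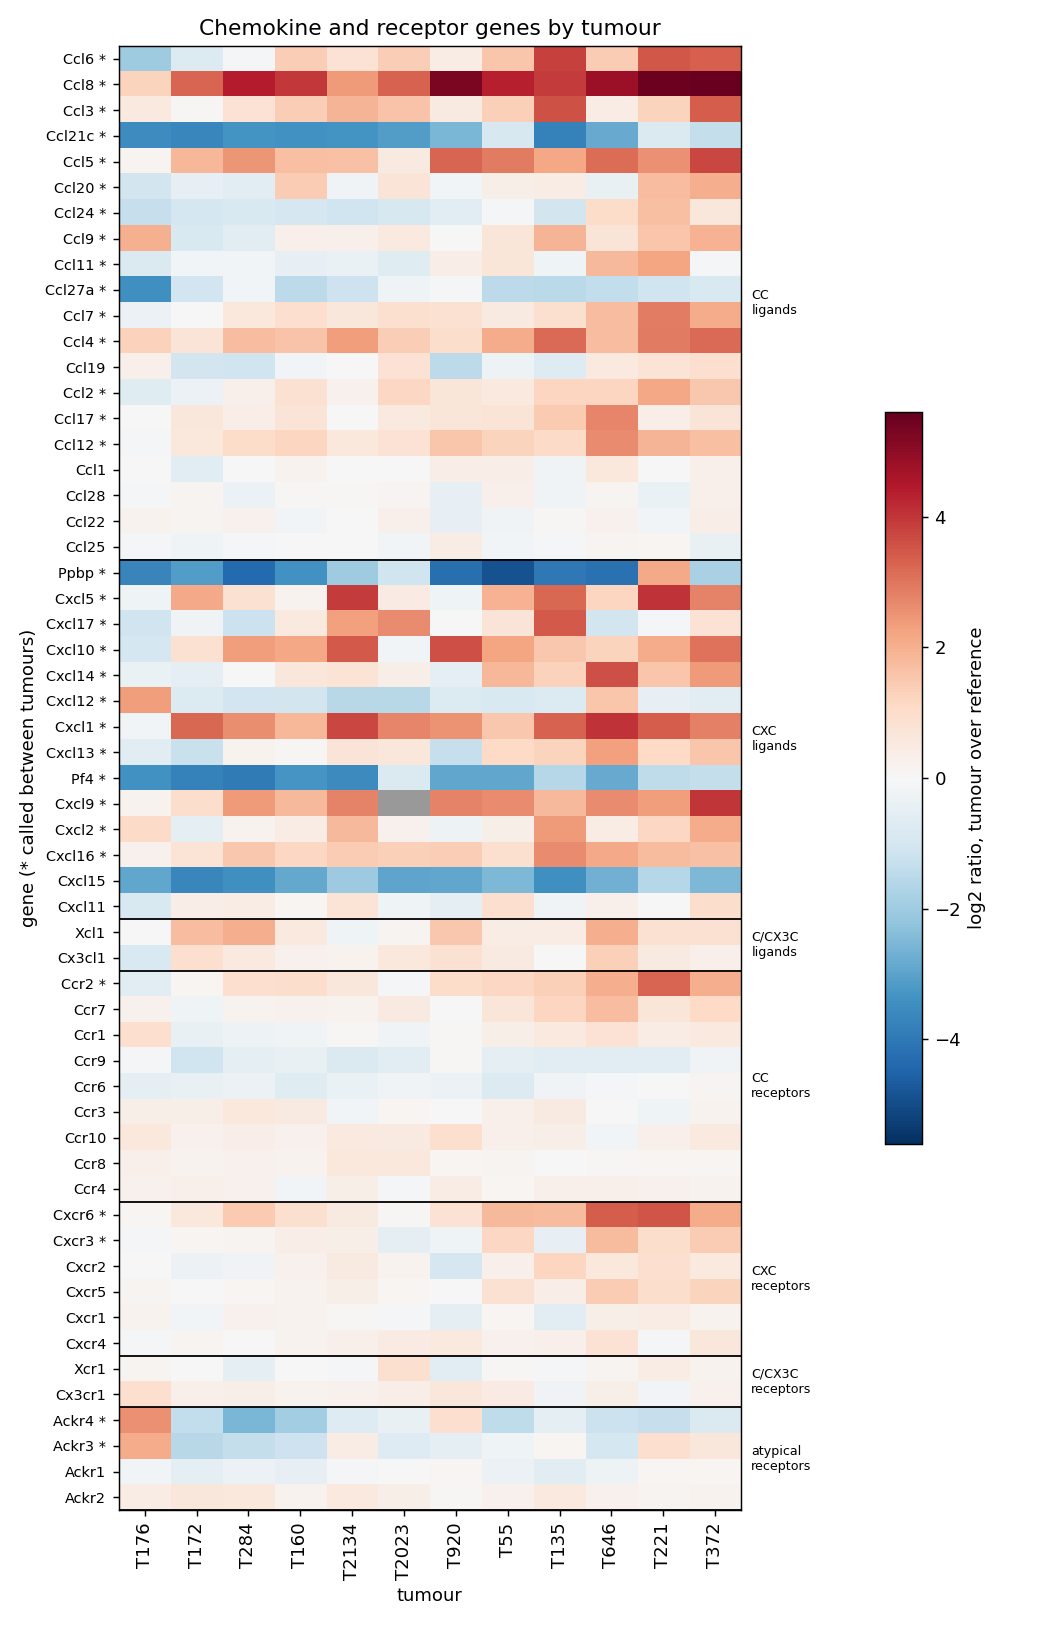
Log2 ratio of tumour over reference for each of the 57 genes (vertical axis, by class, an asterisk marking the 32 called between tumours) in each of the 12 tumours (horizontal axis), with colour giving the value and grey a missing one. The tumours follow the median over called genes only roughly, as T2023 (-0.38) stands after T160 (-0.35) and T2134 (-0.25). The ligand rows change from tumour to tumour, most of the receptor rows stay pale, and T176 at the left edge holds the lowest value of 16 called genes.

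The called genes did not share 1 pattern, but a few tumours held most of the extremes. T221 had the highest value of 9 of the 32, T646 and T135 of 6 each, and T176 and T372 of 4 each. T221 and T372 were each above a gene's mean in 28 of 32 genes. T176 had the lowest value of 16, and T172 the lowest of 5. Taking each gene's difference from its own mean, the median over the called genes was 1.07 in T372, 0.81 in T221, 0.45 in T646 and 0.29 in T135. It was -1.21 in T176, -0.81 in T172 and -0.41 in T284.

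Marker scores of several cell types differed among these tumours, not all in the same direction. A list score here averages a list's measured genes after each gene was centred on its mean of the 12 tumours. T646 had the highest score of the 11 T cell markers measured (0.93), of the 8 B cell and plasma cell markers (1.13; from -0.78) and of the 11 macrophage markers (1.30; from -1.08). T372 was second in the T cell and B cell scores, at 0.57 and 0.89, and the macrophage score was 0.84 in T135, 0.68 in T372 and 0.64 in T221. T135 had the lowest T cell score, -0.37, and a B cell score of -0.28, and T221 had scores of 0.28 and -0.06. T176 had the lowest macrophage and B cell scores. It was also apart in its epithelial and stromal markers, with a luminal epithelium score of -4.95 over 8 genes, the lowest of the 12, and a fibroblast score of 2.30 over 8 genes, the highest. The luminal markers that define mammary epithelium were thus low in T176, and the luminal scores of the other 11 tumours lay between -0.43 and 1.19. The fibroblast markers were not uniform, as T176 had the highest value in Col1a1, Col1a2, Pdgfra and Fap. In Dcn, Pdgfrb, Col3a1 and Lum another tumour was higher, with Col3a1 at -3.30 in T176 and -0.62 in T221. The part of these cell types in the chemokine values was not tested.

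Ccl8, Ccl2, Ccl7 and Ccl12, named as monocyte chemoattractant proteins, were each lowest in T176 and highest in T221, T372 or T646. Ccl8 (monocyte chemoattractant protein 2) lay above the reference in all 12 tumours, from 1.26 in T176 over a median of 4.15 to 5.52 in T372 and 5.51 in T221 (adjusted p = 0.011, limma F-test). T176 was lowest, the next was T2134 at 2.40, and the other 10 were at 3.24 or more. Ccl2, the main ligand of Ccr2, ranged from -0.69 in T176 to 2.15 in T221 with a median of 0.76, and Ccl7, another Ccr2 ligand, from -0.31 in T176 to 2.86 in T221 with a median of 0.89. Ccl12, which also binds Ccr2, ranged from -0.11 in T176 to 2.63 in T646. Ccl11, or eotaxin, an eosinophil attractant, was high in 2 tumours, at 2.20 in T221 and 1.83 in T646, and lay between -0.83 and 0.67 in the other 10. Limma's adjusted p was 0.0237 for Ccl2, 0.0159 for Ccl7, 0.0254 for Ccl12 and 0.043 for Ccl11. Without T221 the adjusted p in limma was 0.0521 for Ccl2, 0.063 for Ccl7 and 0.146 for Ccl11. Without T646 it was 0.0825 for Ccl12 and 0.0875 for Ccl11, and without T176 it was 0.0554 and 0.0525.

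Of Ccl3, Ccl4 and Ccl5, inflammatory chemokines of macrophages and lymphocytes, Ccl3 and Ccl4 were highest in T135 and Ccl5 in T372. Ccl3 reached 3.58 in T135 and 3.41 in T372, lay at 1.91 or below in the other 10 and had its lowest value, 0.06, in T172. Ccl4 was high in the same 2 tumours, at 3.19 and 3.16, with T221 at 2.91 and the lowest value, 0.72, again in T172. Ccl5, made by T cells, NK cells and many activated cells, ran from 0.15 in T176 and 0.50 in T2023 over a median of 2.31 to 3.76 in T372. Limma gave an adjusted p of 0.0455 for Ccl3, 0.0111 for Ccl4 and 0.0222 for Ccl5. The Ccl3 call was lost without T135 (adjusted p 0.112, limma) and without T372 (0.092), and that of Ccl5 without T176 (0.0593).

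Ccl6 and Ccl9, rodent chemokines of myeloid cells, parted in T176. Ccl6 had the widest range of the CC ligands, from -1.99 in T176 and -0.77 in T172 over a median of 1.37 to 3.48 in T221 and 3.82 in T135 (adjusted p = 0.0046, limma). Ccl9 was instead highest in T176, at 1.97, level with T372 at 1.93 and T135 at 1.88, and lowest in T172, at -0.84 (adjusted p = 0.0087, limma). Of the 11 macrophage markers, T176 had the lowest value of the 12 tumours in 6 (Adgre1, C1qa, C1qc, Lyz2, Ctss and Cd14) and the highest in 1, Cd68, at 2.81. These 11 genes on chromosome 11 of the mouse assembly GRCm38.p6, the CC ligands just named and Cxcl16, were called. Ccl1, a ligand of Ccr8, was the only member of the 12 ligands there that was not. Beside this, 75.0% of all 36 ligands and 18.3% of all genes were called.

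Of the other CC ligands, Ccl20, the ligand of Ccr6, was highest in T372 at 2.03 and in T221 at 1.71, with a median of 0.08 and its lowest value in T176 at -1.01 (adjusted p = 0.00436, limma). Ccl24, or eotaxin-2, was above the reference only in T221 (1.69), T646 (1.05) and T372 (0.64) and lay between -1.29 and -0.10 in the other 9 (adjusted p = 0.00821, limma). Ccl21c, a lymph node chemokine that binds Ccr7, was below the reference in all 12 tumours. It was -0.79 in T221, -0.91 in T55 and -1.34 in T372, and -2.54 or lower in the other 9 (adjusted p = 0.0134, limma). Ccl17, a ligand of Ccr4, was 2.73 in T646, 1.44 in T135 and between -0.03 and 0.73 in the other 10. Its adjusted p in limma was 0.0297, and 0.376 without T646. Ccl27a, the keratinocyte chemokine, was below the reference throughout, from -0.07 in T920 over a median of -1.13 to -3.43 in T176. The next lowest tumour, T135, was at -1.52, and limma's adjusted p was 0.00859, or 0.0978 without T176. Of the 5 CC ligands not called, Ccl19, which shares Ccr7 with Ccl21, had the largest SD, 0.825, with values from -1.46 in T920 to 0.96 in T372. The other 4, Ccl1, Ccl22, Ccl25 and Ccl28, had SDs from 0.205 to 0.31 and means between -0.05 and 0.09.

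Among the CXC ligands that bind Cxcr2 and attract neutrophils, Cxcl1 was above 1 in 11 of 12 tumours, Cxcl5 in 7 and Cxcl2 in 5. Ppbp, also a Cxcr2 ligand and described below, was above 1 in 1 tumour and below 0 in 11. These counts are set against the reference and do not rank the genes by level. T221 was the highest tumour in both Ppbp and Cxcl5. Cxcl1 was at 1.49 or more in 11 tumours, with a median of 2.78 and the highest value in T646 at 4.07, and it was -0.15 in T176. Its adjusted p in limma was 0.0253 over the 12 tumours and 0.182 without T176. Cxcl2 was highest in T135 at 2.39 and in T372 at 2.07 and lowest in T172 at -0.54, with T176 at 1.05, above the median of 0.41 (adjusted p = 0.0378, limma). Without T135 limma's adjusted p for Cxcl2 was 0.0734, and without T372 0.0527. Cxcl5 reached 4.04 in T221, 3.91 in T2134 and 3.20 in T135 and was -0.24 in both T176 and T920, with a median of 1.58 (adjusted p = 0.000669, limma).

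Cxcl1 and Cxcl2 lie beside each other on chromosome 5, and the stretches before their start sites share a run of 14 bases that holds an NF-kappaB-like motif, searched for as GGGA, 2 bases of any kind and TTCC. They are shown because both genes carry this run, while in T176 Cxcl1 had its lowest value and Cxcl2 lay above its median. Sequences are from RefSeq on GRCm38.p6 and give the 250 bases upstream of the start, 5′ to 3′ on the gene's strand, with capitals marking the matches, which overlap on both strands. The window of Cxcl1 is chr5:90890995-90891244 on the plus strand, with matches from -71 to -62 and from -70 to -61. That of Cxcl2 is chr5:90903649-90903898 on the plus strand, with matches from -97 to -88 and from -96 to -87.
Cxcl1: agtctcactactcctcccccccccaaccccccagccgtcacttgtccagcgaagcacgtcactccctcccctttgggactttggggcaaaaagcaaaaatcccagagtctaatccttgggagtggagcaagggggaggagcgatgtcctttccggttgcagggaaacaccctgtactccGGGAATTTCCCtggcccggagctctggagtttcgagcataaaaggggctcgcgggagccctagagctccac
Cxcl2: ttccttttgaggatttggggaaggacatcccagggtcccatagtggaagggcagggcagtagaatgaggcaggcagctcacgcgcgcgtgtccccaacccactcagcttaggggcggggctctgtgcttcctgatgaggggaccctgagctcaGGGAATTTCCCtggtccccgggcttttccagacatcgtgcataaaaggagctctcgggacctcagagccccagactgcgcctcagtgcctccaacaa
The shared run was GGGAATTTCCCTGG. On either strand, the motif was found in 5 of the 47 upstream windows of these genes, or 10.6%, and in 1.21% of 32851 windows of all genes. The 5 belong to Cxcl1, Cxcl2, Cxcl10, Ccl1 and Ccr3, and 43 of the 57 genes had a window. Ccl1 and Ccr3 were not called between tumours. A match describes letters and does not show that a factor bound there.

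Ppbp and Pf4, stored in platelet granules and also near this cluster on chromosome 5, lay below the reference almost throughout. Ppbp had the widest range of all 57 genes, from -4.86 in T55 over a median of -3.55 to -1.11 in T2023 and 2.12 in T221 (adjusted p = 0.000524, limma). T221 was the only tumour above the reference. Pf4 ran from -3.95 in T284 over a median of -2.90 to -0.80 in T2023, with T372, T221 and T135 between -1.61 and -1.35 and the other 8 at -2.80 or lower (adjusted p = 0.00186, limma). The score of the 6 platelet and megakaryocyte markers measured was -0.03 in T221 and 0.51 in T2023, within a range from -0.54 to 0.51, and 1 of the 6 was called between tumours, Itga2b. Cxcl15, a neutrophil attractant of the same cluster, was below the reference in all 12 tumours, from -3.66 in T172 to -1.59 in T221, and was not called (adjusted p = 0.0686, limma).

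Cxcl9, Cxcl10 and Cxcl11 are interferon-inducible ligands of Cxcr3, and Cxcl9 and Cxcl10 differed between tumours. Cxcl10 ran from -0.99 in T176 and -0.16 in T2023 over a median of 2.12 to 3.46 in T2134 and 3.63 in T920 (adjusted p = 0.00609, limma). Cxcl9 ran from 0.18 in T176 and 0.96 in T172 over a median of 2.40 to 2.80 in T920 and 4.01 in T372 in the 11 tumours with a value (adjusted p = 0.00594, limma). Cxcl11 lay between -0.85 in T176 and 0.998 in T372 and was not called (adjusted p = 0.24, limma). Beside these, the score of 9 interferon-stimulated genes was lowest in T176 (-1.46) and T2023 (-1.38) and highest in T920 (1.70), and the score of 8 interferon-gamma-inducible genes was lowest in the same 2 tumours (-1.84 and -1.71) and highest in T372 (1.40). In these scores T2023 was near T176, which does not stand in for its missing Cxcl9 value. Not all of the 8 interferon-gamma-inducible genes were low in T176. Iigp1 was at -3.74 there, but Irf1 was at 1.65 and Ciita at 0.04.

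The upstream window of Cxcl10, chr5:92348890-92349139 on the minus strand of GRCm38.p6 from RefSeq, holds an interferon response element-like match (GAAA, 2 bases of any kind and GAAA) from -213 to -204 and an NF-kappaB-like match from -159 to -150. It is shown because Cxcl10 and the interferon-stimulated gene Isg15 were related across tumours. Capitals mark the matches.
Cxcl10: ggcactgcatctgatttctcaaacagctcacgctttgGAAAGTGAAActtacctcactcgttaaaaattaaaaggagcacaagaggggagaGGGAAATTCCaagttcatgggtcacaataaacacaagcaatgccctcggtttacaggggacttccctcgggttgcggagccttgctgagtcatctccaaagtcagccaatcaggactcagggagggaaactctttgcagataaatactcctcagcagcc
The interferon response element-like motif was found, on either strand, in 3 of the 47 windows, those of Cxcl10, Cxcl14 and Ccl19, or 6.38%, against 2.98% of all 32851 windows. The STAT-like motif TTC, 3 bases of any kind and GAA was in 3 of the 47 windows, or 6.38%, against 7.02% of all, those of Cxcl14, Ccl17 and Ccr6. None of the 3 motifs was in the window of Cxcl9, which says only that these letters are not in those 250 bases.

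The CXC ligands not yet described, Cxcl12, Cxcl13, Cxcl14, Cxcl16 and Cxcl17, were each called. Over the whole CXC class it was 12 of 14 ligands, beside 18.3% of all genes. Cxcl12, a stromal chemokine and the ligand of Cxcr4 and Ackr3, was above the reference in T176 (2.36) and T646 (1.55) and lay between -1.54 and -0.45 in the other 10 tumours (adjusted p = 0.00246, limma). No tumour lay between these 2 sets. Cxcl13, which attracts B cells through Cxcr5, ran from -1.28 in T920 and -1.26 in T172 over a median of 0.67 to 2.31 in T646 (adjusted p = 0.0287, limma; 0.0512 without T646). Cxcl14, a chemokine of epithelium and stroma, ran from -0.56 in T920 over a median of 0.69 to 2.37 in T372 and 3.60 in T646 (adjusted p = 0.00247, limma). Cxcl17, a mucosal chemokine, was high in 3 tumours, at 3.44 in T135, 2.63 in T2023 and 2.31 in T2134, and lay between -1.23 in T284 and 0.83 in the other 9 (adjusted p = 0.000725, limma). T135 and T2023 were also among the 3 tumours with the highest squamous epithelium scores, at 2.08 and 2.90, but T221, at 2.45, had a Cxcl17 value of -0.07 and T2134 a squamous score of 0.35. Cxcl16, the ligand of Cxcr6, was above the reference in all 12 tumours, from 0.24 in T176 over a median of 1.40 to 2.63 in T135. Its call rested on few tumours, with an adjusted p in limma of 0.0449 over all 12, 0.109 without T135, 0.0952 without T176 and 0.0548 without T646.

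**Figure D2:**
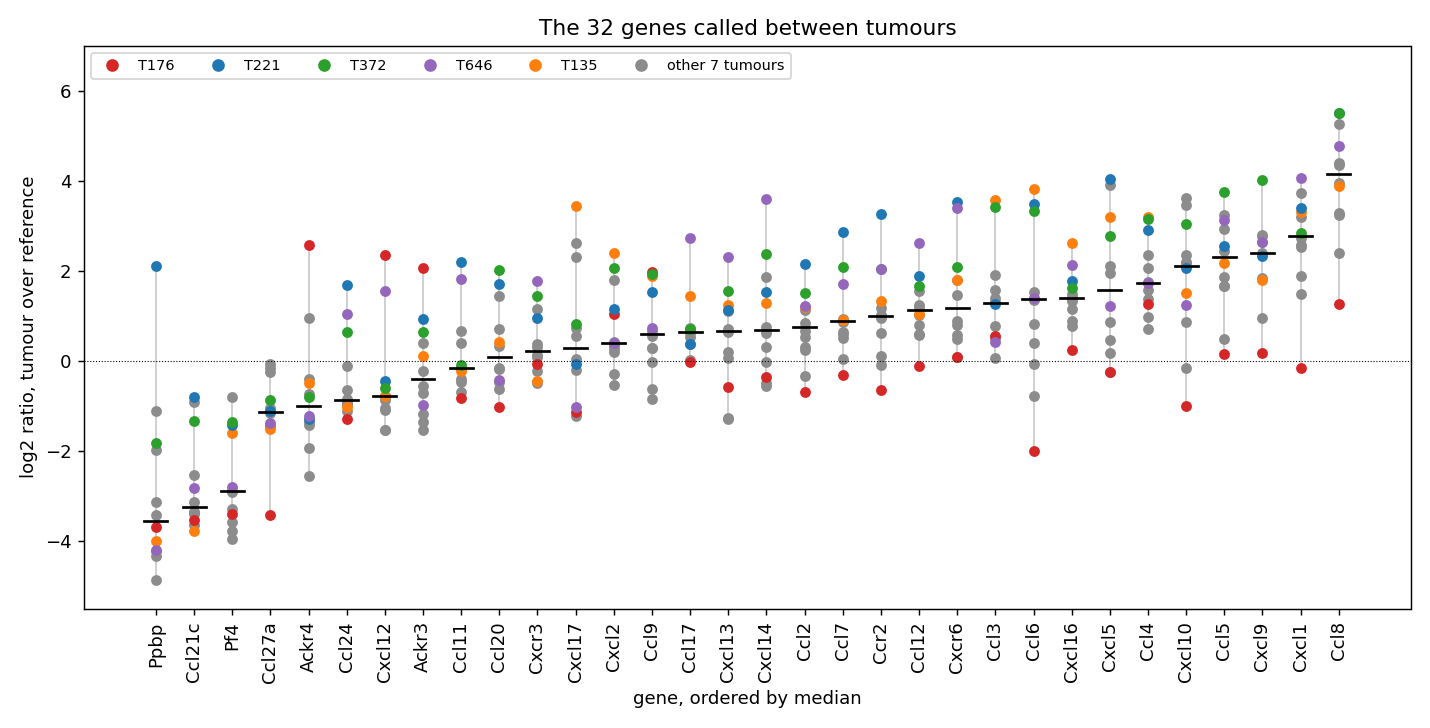
Log2 ratio of tumour over reference (vertical axis) of the 32 genes called between tumours, ordered by median (horizontal axis), with 1 point a tumour and a bar at the median. T176 in red is at the bottom of 16 genes but at the top of Cxcl12, Ackr4, Ackr3 and Ccl9, and T221 in blue stands alone at 2.12 in Ppbp.

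Xcl1, or lymphotactin, made by T cells and NK cells, had the largest SD of the C and CX3C ligands, 0.795. It was 2.04 in T284, 2.02 in T646, 1.74 in T172 and 1.498 in T920, and 0.87 or lower in the other 8 (adjusted p = 0.0948, limma). Cx3cl1, a membrane-bound chemokine of endothelium and epithelium, lay between -0.86 in T176 and 1.32 in T646 (adjusted p = 0.206, limma).

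The called receptors of the signalling kind are known from monocytes and effector lymphocytes. Ccr2, the receptor of inflammatory monocytes, ran from -0.63 in T176 and -0.08 in T2023 over a median of 1.01 to 2.05 in both T372 and T646 and 3.26 in T221. Limma's adjusted p for Ccr2 was 0.0284 over the 12 tumours, 0.0922 without T221 and 0.0508 without T176. Cxcr6, found on effector and resident T cells and NKT cells, was above the reference in all 12 tumours, with T221 at 3.52 and T646 at 3.39 well above the next, T372 at 2.09, and T2023 and T176 at 0.08 and 0.09 (adjusted p = 0.00261, limma). Cxcr3, the receptor of Cxcl9 to Cxcl11 on activated T cells, was 1.77 in T646, 1.44 in T372, 1.16 in T55 and 0.97 in T221, and 0.39 or lower in the other 8, down to -0.49 in T2023. Its adjusted p in limma was 0.0293, and 0.0683 without T646.

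The other receptors of the signalling kind stayed within narrower ranges. Of the 8 uncalled CC receptors, Ccr7, which guides T cells and dendritic cells to lymph nodes, had the largest SD, 0.574, with T646 at 1.75, T135 at 1.21 and T372 at 1.13 (adjusted p = 0.104, limma). The others, Ccr1, Ccr3, Ccr4, Ccr6, Ccr8, Ccr9 and Ccr10, had SDs from 0.17 to 0.45. Of the 4 uncalled CXC receptors, Cxcr2, of neutrophils, had an SD of 0.58 and was highest in T135 at 1.2 and lowest in T920 at -0.95 (adjusted p = 0.103, limma). Cxcr5, of B cells and follicular T cells, lay between 0.00 and 1.42, and Cxcr1 and Cxcr4 had SDs of 0.328 and 0.288. Xcr1, a receptor of cross-presenting dendritic cells, was highest in T2023 at 0.90 with an SD of 0.40, and Cx3cr1, of monocytes and macrophages, was highest in T176 at 0.96 with an SD of 0.307.

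The called atypical receptors were both highest in T176. Ackr4, which takes up Ccl19, Ccl21 and Ccl25, was 2.58 in T176 and 0.95 in T920, and lay below the reference in the other 10 tumours, down to -2.56 in T284, with a median of -1.01 (adjusted p = 0.0011, limma). Ackr3, which takes up Cxcl12, was 2.07 in T176 and 0.93 in T221, with a median of -0.40 and its lowest values in T172 at -1.54 and T284 at -1.36 (adjusted p = 0.00416, limma). Ackr1, the Duffy receptor of red blood cells and venules, and Ackr2, a scavenger of inflammatory CC chemokines, had SDs of 0.256 and 0.191 and were not called.

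Each tumour was next compared with the mean of the other 11, a comparison that treats the lone tumour as varying like the rest. Of 683 combinations of gene and tumour, 4 were called by limma, all of them in T176, and 51 were at an unadjusted p under 0.05. Over all genes and tumours, 0.252% of combinations were called as higher and 0.142% as lower, and in T176 alone the shares were 2.48% and 1.35%. Ackr4 was higher in T176 by 3.60 ± 0.85 (SE) on the log2 scale (2.58 against a mean of -1.02; adjusted p = 0.0321, limma). Cxcl12 was higher by 3.07 ± 0.78 (2.36 against -0.72; adjusted p = 0.0457, limma). Cxcl1 differed by -3.04 ± 0.72 (-0.15 against 2.89; adjusted p = 0.0331, limma) and Ccl27a by -2.48 ± 0.53 (-3.43 against -0.95; adjusted p = 0.0183, limma). The smallest adjusted p of any of the 57 genes in another tumour was 0.0894 in T646 and 0.0952 in T221, both from limma.

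These T176 calls were near the threshold. Cxcl12 was not called when any 1 of T135, T160, T172, T2023, T2134, T221, T284, T372, T55 and T920 was left out, with adjusted p-values from 0.0557 to 0.0723 in limma. Without T646, the other tumour with a high value, its adjusted p was 3e-04 in limma. Without T176, Cxcl12 was the only one of the 57 genes called in T646, where it was not called with T176 present. The Ackr4 call was lost without T55 (adjusted p 0.0506, limma) and that of Cxcl1 without T372 (0.0503). Ccl27a stayed below 0.05 with each of the other 11 tumours left out. T176 also had the lowest luminal epithelium score and the highest fibroblast score given above, and the part of that difference in these 4 genes was not tested.

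Relations across the 12 tumours were computed for 35 pairs of a ligand with its receptor or of a chemokine gene with a marker of the cells or pathway known for it, and p-values were adjusted over the 35. By Pearson's r 12 pairs were called, 3 of 18 ligand and receptor pairs and 9 of 17 gene and marker pairs, and by Spearman's rho 9, which were all among the 12. Ccl7 and Ccr2 had r = 0.916 (permutation p = 8e-05, adjusted 0.0014) and rho = 0.727 (permutation p = 0.00955, adjusted 0.0408), and r = 0.809 without T221 and T372, the 2 tumours farthest from the median. Ccl2 and Ccr2 had r = 0.84 (permutation p = 0.00082, adjusted 0.00644) and rho = 0.825 (permutation p = 0.00168, adjusted 0.0196), and r = 0.605 without T176 and T221. Cxcl13 and Cxcr5 had r = 0.833 (permutation p = 0.00092, adjusted 0.00644) and rho = 0.923 (permutation p = 0.0001, adjusted 0.00175), and r = 0.847 without T172 and T920. Cxcr5 itself was not called between tumours.

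Of the gene and marker pairs, Cxcl10 with Isg15, an interferon-stimulated gene, had r = 0.888 (permutation p = 8e-05, adjusted 0.0014) and rho = 0.923 (permutation p = 6e-05, adjusted 0.00175). Without T176 and T2023 r was 0.831. Both genes were lowest in T176 and highest in T920. Cxcl16 with Ctss, a lysosomal protease of macrophages, had r = 0.811 (permutation p = 0.00162, adjusted 0.0081) and rho = 0.776 (permutation p = 0.00467, adjusted 0.0272). Without T135 and T176 r was 0.619, and without T176 alone the pair was not called (adjusted permutation p 0.0642).

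Other pairs with a marker lost their call when 1 tumour was left out. Cxcr2 with Csf3r, the G-CSF receptor of neutrophils, had r = 0.706 (permutation p = 0.00887, adjusted 0.0345) and rho = 0.79 (permutation p = 0.00306, adjusted 0.0224), and r = 0.801 without T135 and T920. Its adjusted permutation p was 0.0832 without T135, 0.0642 without T176, 0.0574 without T2134, 0.0677 without T221, 0.0526 without T284 and 0.0604 without T372. Cxcl1 with Il1b, an NF-kappaB target, had r = 0.664 (permutation p = 0.0128, adjusted 0.0374) and rho = 0.72 (permutation p = 0.0103, adjusted 0.0408), and r = 0.55 without T176 and T55. Without T176 alone its adjusted permutation p was 0.209, and it was between 0.0545 and 0.0734 without T135, T2023, T2134, T221, T372 or T646. Ccl8 with C1qa, a complement gene of macrophages, had r = 0.699 (permutation p = 0.0113, adjusted 0.0359) and rho = 0.545 (permutation p = 0.0706, adjusted 0.145). It fell to r = 0.378 without T176 and T2134, so it rests on those tumours, and its adjusted permutation p was 0.23 without T176 and between 0.0531 and 0.103 without T2023, T2134, T221, T372, T55 or T646.

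In 4 of the 12 called pairs 1 gene, Cd3d or Cxcl12, split the tumours into separate groups. Values within groups were computed after these gaps were seen. An r over all 12 is given only for Ccr7 and Ccl5, whose values overlapped between the groups. Cd3d, a T cell receptor subunit, was 1 of the 5 T cell markers called between tumours, of 11 measured. Cd3e, Cd247 and Cd4 were among those not called, with SDs of 0.20, 0.23 and 0.33. Cd247 and Cd4 were below the reference in T646. Cd3d was at 0.20 or higher in T55, T221, T372 and T646 and at -0.71 or lower in the other 8. Cxcr3 was at 0.97 or higher in those 4 tumours and at 0.39 or lower in the other 8. Within the 8, Cxcr3 and Cd3d had r = -0.159 (exact permutation p = 0.699) and rho = -0.024 (exact permutation p = 0.977). Ccr7 and Cd3d had r = 0.818 over all 12 tumours (permutation p = 0.00194, adjusted 0.00849) and rho = 0.797 (permutation p = 0.0032, adjusted 0.0224). Without T135 and T646 r was 0.85. Within the 8, where Cd3d lay between -1.43 and -0.71, r was 0.536 (exact permutation p = 0.166) and rho 0.476 (exact permutation p = 0.243). Ccl5 and Cd3d had r = 0.709 over all 12 tumours (permutation p = 0.0103, adjusted 0.0359) and rho = 0.72 (permutation p = 0.0105, adjusted 0.0408). Without T176 and T2023 r was 0.71. Within the 8, r was 0.543 (exact permutation p = 0.166) and rho 0.405 (exact permutation p = 0.327). For Cxcl12 and Col1a2, a collagen chain of fibroblasts, T176 and T646 stood apart in Cxcl12, while in Col1a2 T176 was at 2.17 and T646, at -0.51, lay close to T135, at -0.78. Within the other 10, r was 0.365 (permutation p = 0.299) and rho 0.358 (permutation p = 0.31).

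Of the 18 pairs of a ligand and its receptor, 15 were not called. Cxcl16 and Cxcr6 had r = 0.619 (permutation p = 0.0316, adjusted 0.0852) and rho = 0.65 (permutation p = 0.0257, adjusted 0.0818). Cxcl9 and Cxcr3 had r = 0.552 over 11 tumours (permutation p = 0.0786, adjusted 0.162) and rho = 0.445 (permutation p = 0.174, adjusted 0.321). Cxcl10 and Cxcr3 had r = 0.273 (permutation p = 0.39, adjusted 0.524) and rho = 0.273 (permutation p = 0.392, adjusted 0.559). Cxcl12 and Cxcr4 had r = -0.175 (permutation p = 0.628) and rho = -0.006 (permutation p = 1) within the 10 tumours other than T176 and T646. T646 was the highest of the 12 in Cxcr4, at 0.80, and T176 was at -0.11. Of the gene and marker pairs, those not called included Cxcl13 with Cd79b (r = 0.608), Pf4 with C1qa (0.486) and Cxcl9 with Irf1 (0.333). The rest were Cxcl14 with Krt14 (0.166), Cxcl15 with Elf5 (0.12), Ccl28 with Elf5 (-0.082), Ccl27a with Krt10 (-0.037) and Ackr1 with Cdh5 (-0.016). Adjusted permutation p-values of r in these uncalled marker pairs ran from 0.0936 to 0.958.

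**Figure D3:**
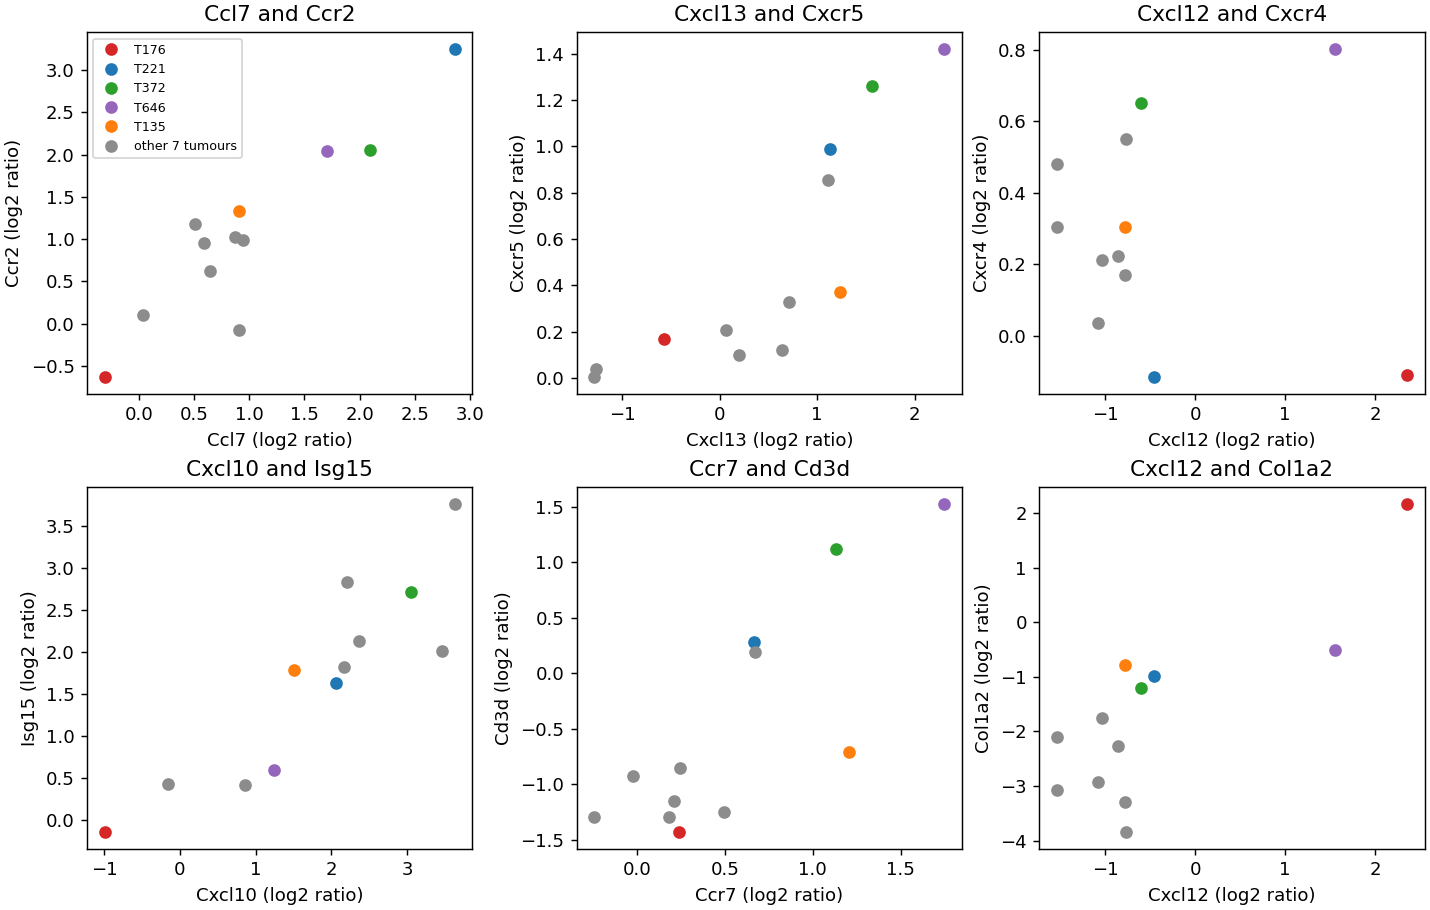
Panels with 1 point a tumour, both axes giving log2 ratios of tumour over reference for the 2 genes of a pair. Ccl7 with Ccr2, Cxcl13 with Cxcr5 and Cxcl10 with Isg15 rise together across the tumours, while in the panels of Cxcl12 the tumours T176 and T646 stand apart at 2.36 and 1.55.

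The genes of a wider chemokine signalling list, not all of them downstream of the receptors, had a smaller median SD than the ligands. Of a list of 49 signalling genes, holding G proteins, kinases, arrestins, exchange factors, regulators and related receptors, 43 were measured and 13 were called between tumours. Their median SD was 0.479, beside 0.386 for all genes, with 18.3% of all genes called. The 4 called genes with the largest SD were Tiam1, an exchange factor of Rac (SD 1.36, adjusted p = 0.000898, limma), Rgs2, which shortens G protein signals (SD 1.2, adjusted p = 0.000796, limma), Dpp4, a peptidase that trims chemokines (SD 1.05, adjusted p = 0.00267, limma), and Tpst2, which sulphates receptor tyrosines (SD 1.03, adjusted p = 0.0082, limma). Tiam1 ran from -2.46 in T176 to 1.94 in T2023, and Dpp4 from -3.81 in T176 to -0.13 in T372. Of the 43, 30.2% were called. Without T176 the count was 7, or 16.3%, beside 14.9% of all genes in that fit. With the second array as a term it was 23, or 53.5%, beside 42.4% of all genes.

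The second arrays of T172 and T284 showed how far a value could move within a tumour. In T284, 40 of the 57 genes were higher on the second array, and 26 of the 32 called genes were, by a median of 0.353, while 44.8% of all genes were higher there and their median difference was -0.063. Ccl6 went from -0.999 to 0.86 and Ccl3 from -0.13 to 1.71, and Ccl8, Ccl5, Cxcl1, Cxcl10 and Cxcl13 were each 1.26 to 1.47 higher. In T172, 29 of 57 were higher on the second array, with a median difference of 0.036, and the largest differences were -1.37 in Cxcr1, 1.27 in Ccl11 and -1.202 in Cxcl2. A difference of at least 1 was seen in 10 of the 57 genes in T284 and in 8 in T172, or 17.5% and 14.0%, against 5.61% and 5.1% of all genes. Over all 57 genes, called or not, the median size of the difference was 0.587 between 2 tumours (66 pairs), 0.419 between the 2 arrays of T284 and 0.408 between those of T172.

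**Figure D4:**
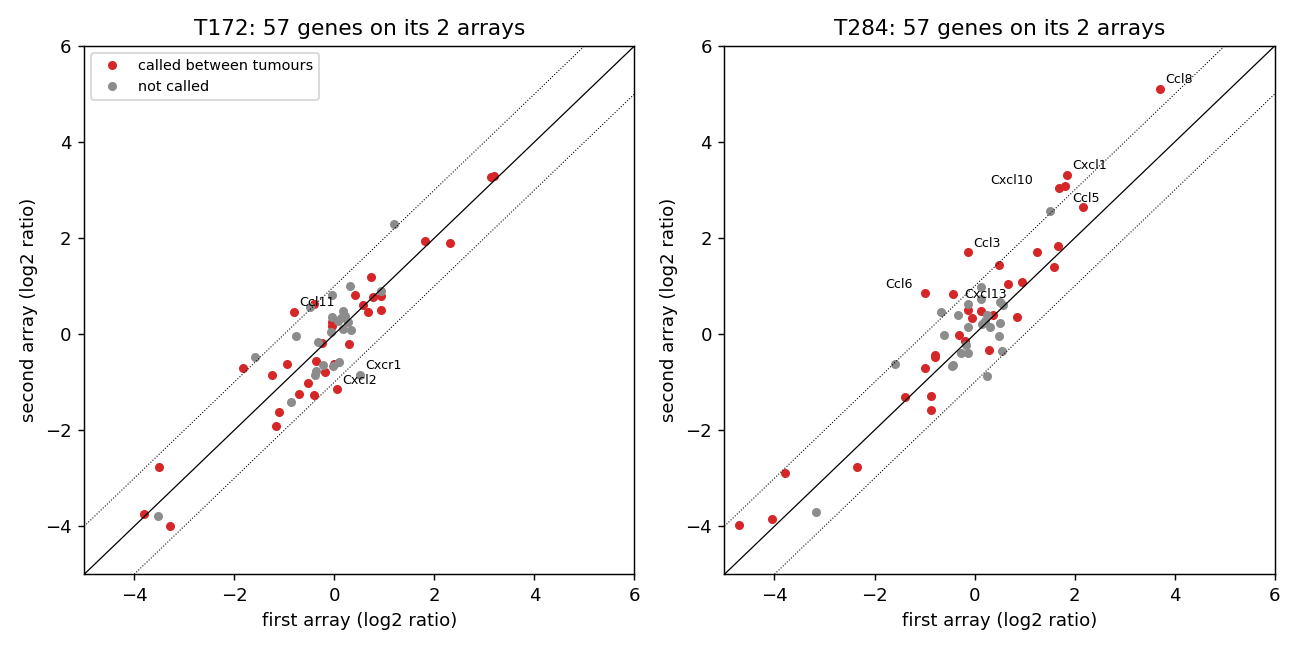
Log2 ratio of each of the 57 genes on the second array (vertical axis) against the first (horizontal axis) for T172 and T284, red for genes called between tumours, with a solid line of equality and dotted lines 1 above and below it. In T284 most red points lie above the line, with Ccl6, Ccl3, Ccl8, Cxcl1, Cxcl10, Ccl5 and Cxcl13 above the upper dotted line.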

How the data were processed

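The values are those of the deposited series table, which the authors gave per probe and array on a scale read as log2 ratio. The labels' dyes give the direction, tumour over reference, and the values' range, -9.19 to 7.42, fits base 2, which is not stated. How arrays were scanned, corrected, normalized and filtered is not stated in the sources used here. Total RNA came from Qiagen RNeasy extractions, per the labels.

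Of 22575 probes, 18658 had 1 symbol in the platform annotation, 30 had several and 3887 none. Only the first kind was used. Symbols were updated through the RefSeq gene table of GRCm38.p6 (18445 by Entrez identifier, 24 by accession, 189 kept). Probes of a gene were averaged, and no further normalization was applied. Genes needed values on at least 12 arrays, with T172 or T284 complete.

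A factor of 12 tumours was fitted to the 14 arrays with limma 3.58.1 in R 4.3.3, and a moderated F-test compared tumours (prior df 7.22, prior SD 0.313). Then each tumour was compared with the other 11 by limma on tumour means. P-values were adjusted after Benjamini-Hochberg over all genes, within each tumour for the latter, and called under 0.05. Relations used two-sided permutation tests with 100000 resamples, and exact ones within 8 tumours, chosen after the gaps in Cd3d and Cxcl12 were seen, in Python 3.11.15 with numpy 2.4.6. The steps were tested on simulated data.

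The genes, lists, relations and alternatives were chosen with earlier results of these data known. Values by tumour are given for genes called in either comparison and, in each class, for the gene with the largest SD, and other genes by range and count. Genes outside the family are named as partners of a relation, as called members of a list, up to 4 with the largest SD, or as cell type markers. Motifs were searched on both strands of the RefSeq promoter windows, in the 250 bases upstream of the start. Alternatives were other probe rules, quantile normalization, a robust prior, filters on missing values, a stricter threshold, the second array as a term or left out, and leaving out each tumour.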

Additional observations from a re-analysis of the deposited data

How the results depend on the processing

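The count of 32 chemokine genes called between tumours was 31 or 32 with 1 probe per gene, quantile normalization, a robust prior and either filter on missing values. At an adjusted p under 0.01 it was 16, and with the second array as a term, which leaves 1 residual degree of freedom and called 7124 of 16784 genes, it was 39, including all 32. Leaving out each tumour in turn gave 25 to 34, the lowest without T176. Of the 32, 14 were called in all 19 alternative settings, and Cxcl9 in each one in which it could be tested. Calls of 1 tumour against the other 11 numbered 4, all in T176, and 0 at an adjusted p under 0.01 in limma. With each tumour left out they numbered 1 to 5, some of them not among the 4. The 1 call without T176 was Cxcl12 in T646, and 2 of the 4 were called without T372 or without T55. With first arrays only the Cxcl1 call was lost (adjusted p 0.0554, limma), and with second arrays only that of Cxcl12, at a difference of 3.08. The signalling count of 13 was 23 with the second array as a term and 7 to 15 with each tumour left out, 7 without T176. The 12 relations were 10 with quantile normalization and 6 to 13 with each tumour left out, 6 without T176 and 7 without T646. The 4 differences in T176 and the 12 relations kept their sign in each alternative in which they were computed. F-test calls and counts have no direction. Within the 8 tumours of low Cd3d, which was not among these alternatives, Cxcr3 and Cd3d had r = -0.159. The causes were not tested. No paired analysis was possible because each tumour is its own group. The number of arrays and the spread between 2 pairs of arrays limit precision, and signal over background is not known here.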
